A study of Mus musculus with 2 samples.

Results

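DNase I hypersensitive sites (DHSs) are stretches of chromatin that the enzyme DNase I cuts more often than their surroundings. Described here are the DHSs at promoters poor in CpG dinucleotides in left cerebral cortex tissue. The tissue came from B6CASTF1/J mice, female first-generation hybrids of 2 inbred strains, 4 days old. All samples form 1 group, with no treatment named, of 2 DNase-seq libraries called replicate 1 and replicate 2. Their animals carry different numbers in the labels but share a donor entry for the strain, so the spread between them may be partly technical. The stricter of the authors' peak lists held 59355 calls in replicate 1 and 46566 in replicate 2. Below, a call is one of these stricter lists unless it is named lenient, after the longer lists. A shared DHS is the union of overlapping calls, by at least 1 bp, that holds a call of each library. Members were the shared DHSs whose centre lay at most 1 kb from a protein-coding transcription start site (TSS) with a CpG observed to expected ratio under 0.6 in the window of 500 bp on either side, with no TSS at 0.6 or more within 1 kb. There were 2601 such DHSs among 26012 shared DHSs, beside 11688 at CpG-richer promoters and 11723 distal ones. The members were chosen by the peak calls of both libraries, so their presence and their signal values are a description and carry no test. The rule applied to the calls of 1 library alone gave 4155 without replicate 1 and 3689 without replicate 2.

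In mammals, most housekeeping genes start in CpG islands, where CpG dinucleotides stay frequent and mostly unmethylated and where open chromatin is found in nearly every cell type. Promoters poor in CpG lie in sequence that lost CpGs through methylation over evolution, and many of them belong to genes used in a single tissue, such as those of synapses, of blood or of smell. Classical core promoter elements, among them the TATA box that binds TBP and places the start of transcription, are known mainly from such genes. CTCF, an insulator and loop-anchoring factor, and REST, a repressor of neuronal genes in cells other than neurons, bind long motifs and leave footprints, short runs of protected bases inside a cut region.

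Promoters of 3 of the strongest members are printed first. Their CpG ratios at the TSS, 0.573 for Rsph1, 0.594 for Trim32 and 0.52 for Copg1, stood above the members' median of 0.494. Within 250 bp of the DHS centre the ratios were 0.599, 0.804 and 0.615. The sequences below come from the mouse reference GRCm38 (mm10), that is from one inbred strain and not from these hybrid animals. Each runs over 121 bases on the gene's strand and ends 10 bases after the TSS, with CCAAT and GGGCGG, on either strand, in capitals. Rsph1, a radial spoke protein of motile cilia, lies at chr17:31277373-31277493 (minus strand). Trim32, a ubiquitin ligase, lies at chr4:65604876-65604996 (plus strand), and Copg1, a subunit of the coat of transport vesicles, at chr6:87887704-87887824 (plus strand). Rsph1 holds both elements here, Trim32 holds CCAAT alone, in reverse orientation, and Copg1 holds neither.
Rsph1: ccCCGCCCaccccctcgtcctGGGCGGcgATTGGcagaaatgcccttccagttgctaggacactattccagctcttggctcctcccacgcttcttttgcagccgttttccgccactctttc
Trim32: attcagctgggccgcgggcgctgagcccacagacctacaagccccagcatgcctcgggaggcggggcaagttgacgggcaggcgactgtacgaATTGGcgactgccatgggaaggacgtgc
Copg1: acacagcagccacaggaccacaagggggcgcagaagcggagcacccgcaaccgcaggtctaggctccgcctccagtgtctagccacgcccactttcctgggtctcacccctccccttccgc

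The next set shows the members with a TATA box, which were few. TATAAA stands in capitals, 40 to 20 bases upstream of the TSS, in 71 bases around the start, or in 30 bases for Cx3cl1, where the window is annotated as exon of another transcript. The genes are Tubb2a, a neuronal beta-tubulin, at chr13:34077997-34078067 (minus strand), Calb2, the interneuron calcium buffer calretinin, at chr8:110168200-110168270 (minus strand), and Cx3cl1, the neuronal chemokine fractalkine, at chr8:94772162-94772191 (plus strand). The others are Tmem17, a ciliary membrane protein, at chr11:22512028-22512098 (plus strand), and Cyp1a1, a cytochrome P450 of xenobiotic metabolism, at chr9:57697553-57697623 (plus strand).
Tubb2a: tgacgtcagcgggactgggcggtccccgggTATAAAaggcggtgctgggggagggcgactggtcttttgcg
Calb2: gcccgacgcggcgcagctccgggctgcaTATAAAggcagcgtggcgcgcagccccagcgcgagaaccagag
Cx3cl1: ctgccagcccatTATAAAaagcaaccgaga
Tmem17: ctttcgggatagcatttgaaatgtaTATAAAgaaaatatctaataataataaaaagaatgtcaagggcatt
Cyp1a1: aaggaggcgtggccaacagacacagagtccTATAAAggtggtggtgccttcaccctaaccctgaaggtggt

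The third set holds matches to the core of the REST motif inside members, with the match in capitals and the 30 bases read in the motif's own direction. They are at Snap25 (chr2:136714283-136714312, plus strand), Chrnb2 (chr3:89764451-89764480, minus strand) and Cntnap2 (chr6:45059281-45059310, plus strand), which encode a vesicle fusion protein, a nicotinic receptor subunit and a neuronal adhesion protein. The remaining examples are Htr1a (chr13:105442782-105442811, minus strand), encoding a serotonin receptor, and Ogdhl (chr14:32321909-32321938, plus strand), encoding a relative of a Krebs cycle enzyme.
Snap25: gggagctCAGCACCCTGGACAGgagtgctc
Chrnb2: cgcggcttCAGCACCACGGACAGcgctccg
Cntnap2: ccaacttCAGCACCGCGGACAGcagcgcct
Htr1a: attgggttCAGCACCCGGGACAGctctgtg
Ogdhl: gggaggtCAGCACCTCGGACAGcgagggcc

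The fourth set holds CTCF matches in members whose TSS has a CpG observed to expected ratio under 0.3, again in the motif's direction and with the match in capitals. They lie near Tsc22d4 (chr5:137757429-137757458, minus strand), Dusp13 (chr14:21742002-21742031, minus strand), Pcp4 (chr16:96467580-96467609, plus strand), Hipk4 (chr7:27526632-27526661, minus strand) and Myo7a (chr7:98120414-98120443, minus strand).
Tsc22d4: gagcagtggCCACCAGAGGGCaactcatgc
Dusp13: agccactggCCACTAGAGGGCagacttacc
Pcp4: cactgtgctCCACTAGGTGGCtctttgcgc
Hipk4: ttcctctcgCCACCAGGTGGCgctcttcca
Myo7a: tggctgtgcCCAGCAGGTGGCaccattgca

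Few genes with CpG-poor promoters held a member, and the share climbed steeply with CpG content. Of 10833 protein-coding genes whose TSSs all had a ratio under 0.6, 2049 held a member, a background of 18.9% (exact 95% interval 18.2 to 19.7), against 90.3% of 11105 genes with a CpG-richer TSS. Intervals here and below cover counting error only, since genes and DHSs are not replicates. Single libraries gave 21.5% of the CpG-poor genes a call in replicate 1 and 25% in replicate 2, and 7965 genes (73.5%) had no call in either. Counting any shared DHS near a TSS, member or not, 2127 of the 10833 genes (19.6%) held one. In bins of 0.1 of the ratio, the share with any shared DHS was 0.412% under 0.1, 1.09%, 4.95%, 18.4%, 44.7% and 68.8% at 0.5 to 0.6. Past the threshold it went on to 82.3% and 89.7% in the next bins, so the limit of 0.6 cuts a continuous climb. Below 0.4 the background, the share of genes holding a member, was 5.11% of 7881 genes, and from 0.4 to 0.6 it was 55.8% of 2952 genes.

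**Figure D1:**
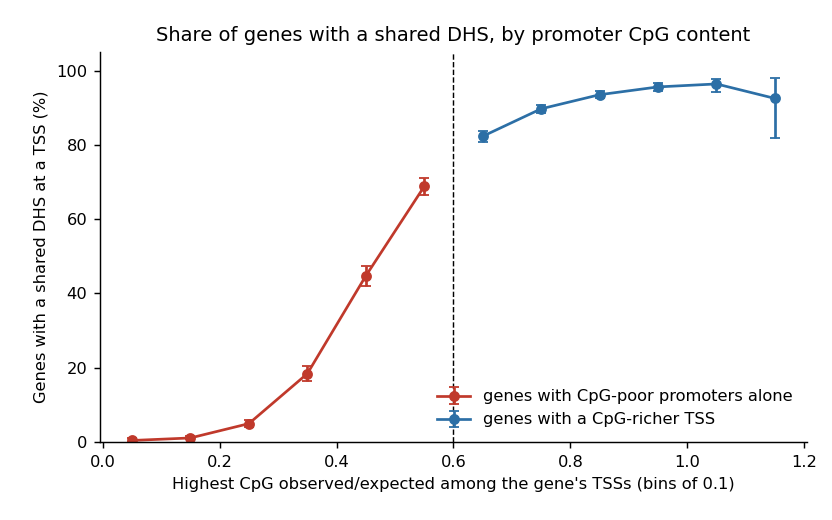
Percent of protein-coding genes with a shared DHS at a TSS (vertical axis) by the highest CpG observed to expected ratio of the gene's TSSs (horizontal axis, bins of 0.1), red under the threshold of 0.6 and blue at or above it. Points are shares, bars are exact 95% binomial intervals. The share climbs from 0.412% in the first bin to 68.8% in the last bin under 0.6, and stands at 82.3% in the first bin above it.

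The bin next to the threshold held more members than any other bin. Of the 2601, 1240 (47.7%) had a ratio of 0.5 to 0.6, 751 of 0.4 to 0.5, 388 of 0.3 to 0.4, 158 of 0.2 to 0.3 and 64 under 0.2. Just inside were Etnk2 (0.59987) and the NMDA receptor gene Grin2a (0.59969). Just outside were Spag1 (0.60001) and Mfsd4b3 (0.60012), with signal values of 1.63 and 1.84 in replicate 1. Around the DHS itself, within 250 bp of its centre, 1042 members (40.1%) reached a ratio of 0.6 or more, against 93.6% of the DHSs at CpG-richer promoters. The nearest gene of 316 members (12.1%) also had a CpG-richer TSS elsewhere. In all, 2248 genes were nearest to a member, and 299 of them had more than 1.

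Members were narrower and had lower signal values than DHSs at CpG-richer promoters, and they were wider than distal DHSs. Median width was 344 bp for members (quartiles 240 and 460), 400 bp at CpG-richer promoters and 220 bp at distal DHSs. The authors' signal value, whose scaling is not given in the sources used here, had a median of 0.985 in replicate 1 and 2.12 in replicate 2 for members. It was 1.46 and 3.84 at CpG-richer promoters, and 0.962 and 1.80 at distal DHSs. The ratio of the medians, members over CpG-richer promoters, was 0.674 in replicate 1 and 0.551 in replicate 2. Among DHSs 200 to 300 bp wide the medians were 1.03 and 2.42 for members, against 1.71 and 4.83 at CpG-richer promoters, so the lower signal was present at like width. The median member stood at percentile 39.6 and 44.7 of all shared DHSs, against 66.9 and 70.3 at CpG-richer promoters.

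The libraries ranked the members alike. Spearman's rho of the signal values, across DHSs and with no test, was 0.893 for members, 0.926 at CpG-richer promoters and 0.846 at distal DHSs. Calls of a single library near a CpG-poor promoter were met by a call of the other in 77.0% of replicate 1 and 68.3% of replicate 2. At CpG-richer promoters these shares were 87.0% and 85.1%, and at distal calls 30.6% and 45.5%. Calls at CpG-poor promoters without a partner were weaker, with a median of 0.378 against 0.953 for those with one in replicate 1, and of 0.867 against 2.04 in replicate 2.

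**Figure D2:**
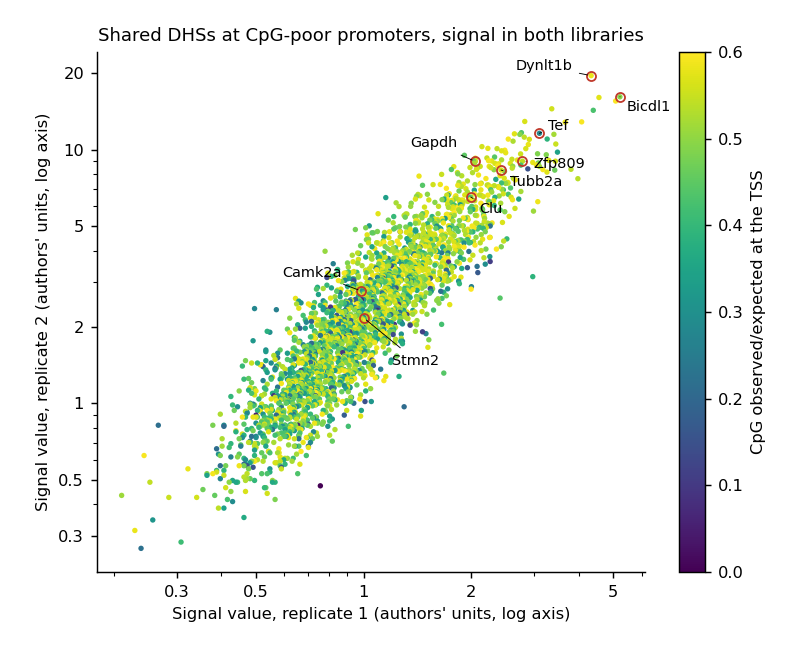
Signal value of the 2601 members in replicate 1 (horizontal, log axis) and replicate 2 (vertical, log axis), in the authors' units. Each point is a DHS, coloured by the CpG observed to expected ratio at its TSS, and circles mark named genes. Dynlt1b and Bicdl1 lie at the top in both libraries, and Stmn2 and Camk2a lie near the medians of 0.985 and 2.12.

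The 15 strongest members, by the geometric mean of both values, included genes of dynein transport, proton pumping, vesicle coats, translation and the circadian clock. Dynlt1b, a light chain of the motor dynein, had 4.33 in replicate 1 and 19.6 in replicate 2, and Bicdl1, a dynein adaptor, had 5.22 and 16.2. Next came Zswim1 (5.08 and 15.6), Rsph1 (4.56 and 16.1), Atp6v1g2, a proton pump subunit (4.39 and 14.3), and Trim32 (4.08 and 12.9). Hexim2, an inhibitor of the elongation kinase P-TEFb, had 3.36 and 14.5, Glo1, which detoxifies methylglyoxal, 3.67 and 12.8, and Copg1 3.41 and 11.5. The others were Mypop, Iars (an isoleucyl-tRNA synthetase), Tef, Zmynd8, Tldc1 and Nr1d1. Tef, a PAR bZIP factor, and Nr1d1, the repressor REV-ERB alpha, act in the circadian clock, and they had 3.11 and 11.6 and 2.76 and 11.7. Tef, with a TSS ratio of 0.273, was the strongest member under 0.3. Dynlt1b has near-identical neighbours in its family, so its value is uncertain, although at least 1 of the 31-base words tested at its DHS occurs at 1 place in the reference.

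Genes of synapses and of the neuronal cytoskeleton held members more often than the background of 18.9%. For synaptic vesicle release it was 16 of 20 genes with CpG-poor promoters (80%, interval 56.3 to 94.3). Among them, Syt5, a calcium sensor of vesicle fusion, had 2.05 and 7.29, Syn3, a synapsin, had 1.68 and 6.36, and Snap25, a fusion protein of the SNARE complex, had 1.13 and 3.26 at its stronger DHS. Cplx3 and Slc17a7, a complexin and a vesicular glutamate transporter, had no call in either library, although Slc17a7 was in both lenient lists with 0.766 and 1.12.

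Of postsynaptic receptors and scaffolds, 19 of 26 (73.1%, interval 52.2 to 88.4) held a member. Dlg4, the scaffold PSD-95, had 1.15 and 6.48 at its stronger DHS, and Grin2a had 1.69 and 3.47 at the strongest of its 5 members. Camk2a, the alpha subunit of the calcium and calmodulin kinase of the synapse, had 0.985 and 2.77. Gabra3, a GABA-A receptor subunit, had no stricter call in either library. Nrgn, encoding neurogranin, had a stricter call in replicate 2 alone with 2.73. In the lenient lists all 26 genes had a call in each library, and Nrgn had 0.873 in replicate 1.

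Of the neuronal cytoskeleton and growth genes, 13 of 17 held a member (76.5%, interval 50.1 to 93.2). Tubb2a had 2.42 and 8.32, its neighbour and paralog Tubb2b had 1.79 and 8.58, and Stmn2, a microtubule regulator of growing axons, had 0.999 and 2.17. The other 4 genes, Gap43, Dcx, L1cam and Cntn2, had a stricter call in replicate 2 alone, with signal values of 1.09, 0.544, 0.993 and 2.30. In the lenient list of replicate 1 they were called too, with 0.439, 0.308, 0.612 and 0.869. Ion channels gave 5 of 8 (62.5%, interval 24.5 to 91.5), with Scn3b, a sodium channel beta subunit, at 1.23 and 4.92. They gave 1 of 4 under a ratio of 0.4 (interval 0.631 to 80.6) and 4 of 4 from 0.4 to 0.6 (interval 39.8 to 100). Both intervals hold the background of their range.

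The synaptic and cytoskeleton lists stood above the background where CpG content was lowest. Under a ratio of 0.4, where the background was 5.11%, members were at 3 of 3 vesicle release genes, 8 of 11 postsynaptic genes (72.7%, interval 39 to 94) and 4 of 6 cytoskeleton genes. From 0.4 to 0.6, against 55.8%, they were at 13 of 17 (76.5%), 11 of 15 (73.3%) and 9 of 11 (81.8%). In that upper range the interval of each of these lists includes the background, with lower bounds of 50.1%, 44.9% and 48.2%.

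Transcription factor and interneuron lists had intervals that include the background of 18.9%, and their differences from the synaptic lists were not tested. Of cortical neuron transcription factors, 3 of 10 held a member (30%, interval 6.67 to 65.2), 1 of 6 under a ratio of 0.4 and 2 of 4 above it. These were Myt1l (0.939 and 3.09 at its stronger DHS), Tbr1 (0.752 and 1.4) and Myt1 (0.472 and 0.922), which encode factors of neuronal identity. Neurod6, a proneural factor of excitatory neurons, was called in replicate 2 alone with 1.36, and Neurod4 and Sox5 had no call. Neuropeptide and interneuron genes gave 5 of 12 (41.7%, interval 15.2 to 72.3), 2 of 7 under 0.4 and 3 of 5 above it, led by Calb2 (1.53 and 4.01) and Pvalb, the calcium buffer parvalbumin (0.780 and 1.61). The median ratios of these lists were 0.33 for the transcription factors and 0.391 for the interneuron genes. Cort and Nts, encoding the peptides cortistatin and neurotensin, had no call. Of activity-regulated genes, 2 of 3 held one, Npas4 (1.04 and 2.72) and Inhba (0.948 and 1.82 at its stronger DHS).

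Among glial lists, that of astrocytes stood above the background of 18.9%. Of astrocyte and radial glia genes, 10 of 21 held a member (47.6%, interval 25.7 to 70.2), led by Clu, the secreted chaperone clusterin (1.99 and 6.51), and Cst3, the protease inhibitor cystatin C (1.55 and 4.62). Under a ratio of 0.4 it was 3 of 10, and from 0.4 to 0.6 it was 7 of 11. Gfap, the astrocyte filament protein, had no call in the stricter or the lenient lists, and Aqp4, the water channel of astrocyte endfeet, had only a lenient call in replicate 2 of 0.402. None of 15 oligodendrocyte lineage genes with CpG-poor promoters alone held a member. This allows a share of up to 21.8%, a range that holds the background. Of these, 11 lay under a ratio of 0.4, where 0 of 11 allows up to 28.5%, against 5.11% of all genes. Cnp, Enpp6 and Gpr17 of this list had a stricter call in at least 1 library but no member. Of the 12 list genes with a CpG-richer TSS, 1, Pdgfra, held a member at a CpG-poor TSS. Mbp, a main protein of myelin, has a TSS with a ratio of 0.611 and was called in both libraries (1.08 and 1.20) outside the members. In a bulk sample, fewer cells of a type and less open chromatin per cell cannot be told apart.

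Lists of other cell types and tissues were nearly empty, and most of their genes lie under a ratio of 0.4, where few genes held a member. No member stood at 26 microglia and macrophage genes (up to 13.2%), at 26 lymphocyte genes (up to 13.2%) or at 24 hepatocyte genes (up to 14.2%), and Cx3cr1, Alb, Aif1, C1qa and Afp had no call. In these lists 1 microglia gene, Tmem119, and 1 hepatocyte gene, Apob, had a call in replicate 2 alone. These lists are also poorer in CpG than the synaptic ones: their median ratios were 0.213, 0.202 and 0.231, against 0.497 for vesicle release, 0.436 for postsynaptic and 0.467 for cytoskeleton genes. Under 0.4, 0 of 25 microglia genes allow up to 13.7%, a range that holds the background of 5.11%. A lower share than that of other genes of like CpG content was therefore not detectable for these lists. Endothelium, pericytes and meninges gave 2 of 28, Col1a1 (1.55 and 2.76) and Abcb1a (0.579 and 0.638), and Cldn5, the tight junction protein of brain endothelium, had only a lenient call in replicate 2 of 0.670. Erythroid genes gave 1 of 17. Germline genes gave 1 of 16, Spata3 (1.24 and 2.89), and muscle genes 1 of 28, Pvalb, which is in the interneuron list too. Under 0.4 the endothelium list gave 1 of 24 (4.17%, interval 0.105 to 21.1). There the erythroid list gave 0 of 16 (up to 20.6%), the germline list 0 of 12 (up to 26.5%) and the muscle list 0 of 22 (up to 15.4%). Each of these ranges holds the background of 5.11%.

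**Figure D3:**
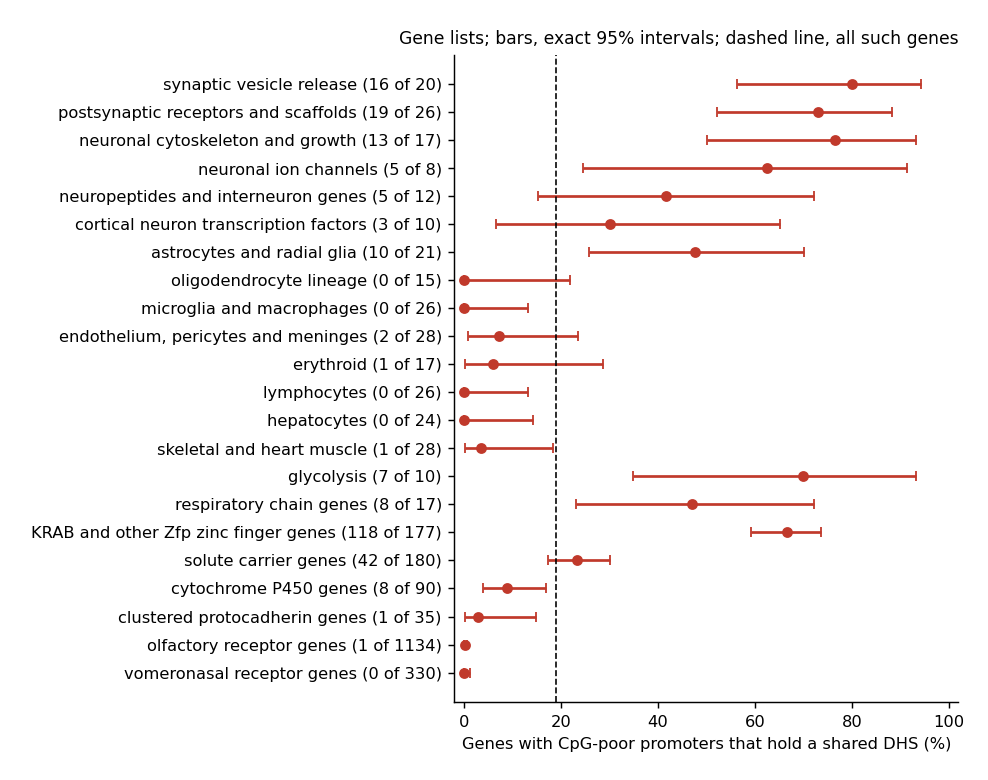
Percent of genes with CpG-poor promoters that hold a member (horizontal axis) in 22 gene lists, with the counts beside each name. Points are shares, bars are exact 95% binomial intervals, and the dashed line is the 18.9% of all such genes. The 4 upper neuronal lists lie between 62.5% and 80%, and the receptor families at the bottom lie at or near 0%.

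Genes of general metabolism with CpG-poor promoters also held members. Glycolysis gave 7 of 10, with Hk1, a hexokinase, at 2.75 and 9.63 and Gapdh at 2.05 and 8.99. The muscle isoforms Eno3 and Pgam2 had no call. All 7 lay in the range from 0.4 to 0.6, where they were 7 of 7 (interval 59 to 100) against 55.8% of all genes. The 8 of 17 respiratory chain genes with a member lay there too, 8 of 11 (72.7%, interval 39 to 94, which holds the background), among them Ndufb10, a subunit of complex I, at 2.25 and 6.07. The isoforms Cox4i2 of lung and Cox6a2 of heart and muscle had no call. The list of translation factor genes, whose members include the kinase gene Eif2ak2, gave 3 of 5, as did proteasome subunits. Splicing factors gave 2 of 3, and ribosomal protein and replication-dependent histone genes 1 of 3 each, against 18.9% of all genes. Lists this small cannot be told from the background at like CpG content.

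Zinc finger genes gave more genes with members than any other of the 40 lists. Of 177 genes named Zfp with CpG-poor promoters, many of them KRAB repressors of transposons, 118 held a member (66.7%, interval 59.2 to 73.6). Under a ratio of 0.4 the share was 42.2% (35 of 83, interval 31.4 to 53.5) against 5.11% of all genes, and from 0.4 to 0.6 it was 88.3% (83 of 94, interval 80 to 94) against 55.8%. Zfp809, a KRAB silencer of retroviruses, had 2.78 and 9.01, and Zfp846 had 2.21 and 9.28. The 126 members at Zfp genes had median signal values of 0.988 and 1.88 and a median width of 380 bp, against 0.985 and 2.14 and 340 bp in the other 2475. Of them, 32 (25.4%) lay on chromosome 7, against 225 (9.09%) of the others. The share of all 177 genes on that chromosome was not counted, so this does not set the members apart from their family.

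Large families of receptors and secreted proteins held few or no members, and most of their genes lie where CpG-poor genes in general held few. The background was 5.11% under a ratio of 0.4. From 0.1 to 0.2, 1.09% of genes held any shared DHS near a TSS. In that bin it was 0 of 828 olfactory and vomeronasal receptor genes (up to 0.445%) and 1.5% of the others (interval 1.04 to 2.1). From 0.2 to 0.3 it was 0 of 257 (up to 1.43%) and 5.62% (interval 4.63 to 6.75). In these bins the receptor genes stood below other genes of like CpG content. Under 0.1, 0 of 320 receptor genes allows up to 1.15%, which holds the 0.559% of the others. The median ratios of the olfactory, vomeronasal, taste receptor, defensin and kallikrein lists were 0.152, 0.115, 0.141, 0.0876 and 0.0905. Olfactory receptor genes gave 1 of 1134 (0.0882%) and vomeronasal receptor genes 0 of 330 (up to 1.11%). The exception, at Olfr94, had 0.715 and 1.36 and was centred 650.5 bp from the TSS, and the CpG ratio within 250 bp of its centre was 0.846. No member stood at 38 taste receptor genes (up to 9.25%), 64 defensin genes (up to 5.6%) or 26 kallikrein genes (up to 13.2%), and these ranges hold the background under 0.4. Interleukin and chemokine genes, with receptors of the interleukins, gave 7 of 124, with Il6, an inflammatory cytokine, at 1.17 and 3.73. Under 0.4 the share was 1.9% (interval 0.232 to 6.71), which holds the background too. The list of keratin and keratin-associated names gave 3 of 111, Krtcap2, Krtap16-1 and Krt222, of which only Krt222 is a keratin gene. Serpins gave 2 of 59, MHC genes 3 of 25, S100 genes 1 of 17 and cytochrome P450 genes 8 of 90 (8.89%). Solute carriers were at the background in both ranges, with 6 of 116 (5.17%) under 0.4 and 36 of 64 (56.2%) above it. Genes named Tmem gave 30 of 96, small GTPase genes 16 of 36 and G protein subunits 6 of 14.

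The clustered protocadherins, adhesion proteins of which each neuron uses a few, stood below genes of like CpG content in the range from 0.4 to 0.6. Of 35 genes with CpG-poor promoters 1 held a member (2.86%, interval 0.0723 to 14.9), Pcdhac1, with 1.49 and 3.37. From 0.4 to 0.6 it was 1 of 21 (4.76%, interval 0.12 to 23.8), against 55.8%. Under 0.4 it was 0 of 14 (up to 23.2%), a range that holds the background of 5.11%.

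Members covered the TSS and the bases just downstream. The DHS interval held the TSS in 68.0% of members and 73.4% of DHSs at CpG-richer promoters. The centre lay upstream of the TSS in 40.4% of members (interval 38.5 to 42.3) and in 47.7% at CpG-richer promoters (interval 46.8 to 48.6). It lay within 100 bp of the TSS in 49.8% and 50.6%. The authors' file of false discovery rates of the cut rate gives the extent of cutting by single bases. It comes from the same libraries as the calls that chose the TSSs, so its values are a description too. In the window of 500 bp on either side of the TSS, a median of 388 bases in replicate 1 and 517 in replicate 2 had a rate under 0.001 at member TSSs. The medians were 693 and 786 at CpG-richer TSSs with a shared DHS, and 0 in both libraries at 15755 CpG-poor TSSs without a call within 1 kb. The share of TSSs cut at this level was highest at 14 and 32 bp downstream for members, at 72.0% and 82.2%. It was highest at -18 and -21 bp for CpG-richer TSSs, at 90.8% and 96.0%.

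A footprint of each library was about as common in members as at CpG-richer promoters, while overlapping footprints of the 2 libraries were less common in members. A footprint of each library overlapped 91.0% of members (interval 89.9 to 92.1), 89.2% at CpG-richer promoters and 93% of distal DHSs. Among DHSs 200 to 300 bp wide the shares were 89.6% of members and 89.6% at CpG-richer promoters, against 95% of distal DHSs. A footprint of replicate 1 that overlapped one of replicate 2 was in 76.8% of members (interval 75.1 to 78.4). It was in 81.6% at CpG-richer promoters (interval 80.8 to 82.3) and 84.7% of distal DHSs, with widths not matched. Members had 8.41 footprints per kb in replicate 1 and 12.4 in replicate 2, against 9.01 and 13.4 at CpG-richer promoters. Only 55 members (2.11%) had none of either library, and their median signal values were 0.607 and 0.874. Along the TSS, footprints were densest at -16 and -23 bp for members, where they covered 10.7% and 19.7% of TSSs, and at -19 and -49 bp for CpG-richer TSSs, with 15.2% and 28.2%. Garnl3, a predicted Rap GTPase activator, held the most, 17 and 21, in a DHS of 1740 bp. The widest were at Mid1ip1 (2120 bp, 16 and 18 footprints) and Pgr, the progesterone receptor (2020 bp, 17 and 14). Slc6a15, an amino acid transporter, held 14 and 21 in 1580 bp.

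**Figure D4:**
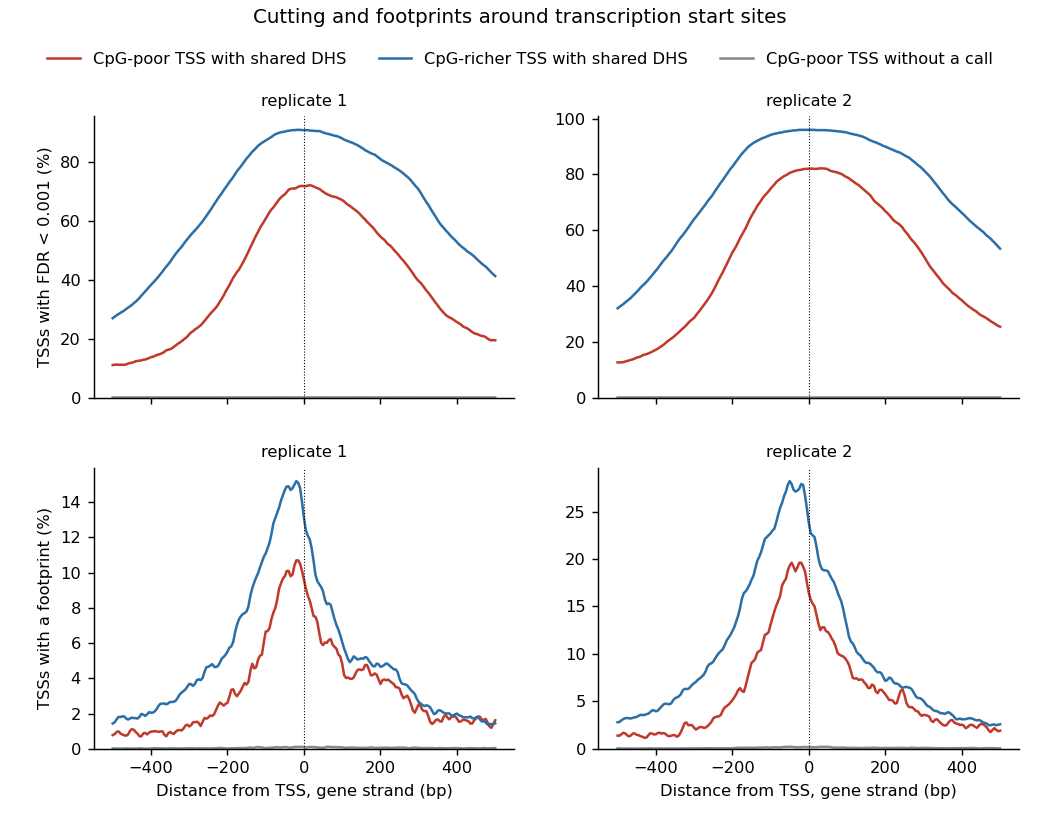
Percent of TSSs whose base at each distance (horizontal axis, bp on the gene's strand, mean of 11 bases) has a cut-rate false discovery rate under 0.001 (upper panels) or lies in a footprint (lower panels), for replicate 1 (left) and replicate 2 (right). Red is CpG-poor TSSs with a shared DHS, blue CpG-richer TSSs with one, grey CpG-poor TSSs without a call. In the lower panels the red line peaks at 10.7% and 19.7% just upstream of the TSS, under the blue line at 15.2% and 28.2%, and grey stays near 0.

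TATAAA was rare at members and more common at CpG-poor promoters without a call, at the place of a TATA box and at other places. TATAAA, on the gene's strand 40 to 20 bases upstream, was at 20 of 2389 member TSSs (0.837%, interval 0.512 to 1.29). It was at 0.707% of 10179 CpG-richer TSSs with a shared DHS, and at 3.34% of 15755 CpG-poor TSSs without a call (interval 3.06 to 3.63). Without the receptor families the last share was 3.61%. Its share also differed in windows away from the usual place of the box: 70 to 50 bases upstream it was at 0.251% of member TSSs and 0.952% of TSSs without a call, and 10 to 30 bases downstream at 0.0419% and 0.324%. Counted over member DHSs, the share was 0.846%, and 0.527% with centres within 500 bp of the TSS. Base composition moved with this: the GC content 40 to 20 bases upstream was 60.4% at member TSSs, 68.9% at CpG-richer TSSs and 46.2% at TSSs without a call, and its part in the difference was not tested. The 20 TSSs belong to 22 member DHSs, with median signal values of 0.845 and 1.56, against 0.985 and 2.13 in members without the element. Tubb2a had 2.42 and 8.32, Tmem17 2.20 and 4.06, Calb2 1.53 and 4.01, Cyp1a1 1.43 and 4.12, and Cx3cl1 1.06 and 4.70. The DHSs of Tubb2a, Calb2 and Cx3cl1 were centred at -23.5, -40.5 and 9 bp from the TSS, over the boxes printed above. That of Tmem17 was centred at 562.5 bp and that of Cyp1a1 at -942.5 bp, away from them. Of the 22, 12 covered the TSS. In these a footprint overlapped the box region in 5 in replicate 1 (41.7%, interval 15.2 to 72.3) and 9 in replicate 2 (75%, interval 42.8 to 94.5). The shares were 33.3% and 53.1% of the 1756 such members without TATAAA, and the intervals hold them.

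GC boxes were at fewer member TSSs than CpG-richer TSSs, and CCAAT was at the same share. The GC box and the start dinucleotide CG hold a CpG themselves, and CCAAT holds none. Members were chosen for low CpG content, so lower shares of CpG-holding elements than at CpG-richer TSSs are built into the rule in part. A GC box (GGGCGG, either strand) stood 100 to 40 bases upstream of 21.2% of member TSSs, 37.0% of CpG-richer TSSs and 5.38% of CpG-poor TSSs without a call. CCAAT, either strand, was at 16.1%, 16.1% and 11.9%. The dinucleotide CG at positions -1 and +1 of the start was at 11.2%, 21.2% and 2.37%, CA was at 20.8%, 14.9% and 21.6%, and TG at 12.2%, 11.7% and 10%. Under a CpG ratio of 0.3 the GC box was at 9.05% of 210 member TSSs and CCAAT at 13.3%.

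Motifs were also counted in the central 150 bp of each DHS, on both strands. The GC box was in 33.4% of members, 52.3% of DHSs at CpG-richer promoters, 14.6% of distal DHSs and 33.4% of all shared DHSs, and at 8.21% of windows over CpG-poor TSSs without a call. The E-box CAGATG, which NEUROD and related neuronal factors bind, was in 7.27% of members, 3.84% at CpG-richer promoters, 13.4% of distal DHSs and 8.50% of all. The ETS motif, CCGGAAG followed by T, was in 2.38%, 4.31%, 0.520% and 2.41%, and the CRE TGACGTCA of CREB factors in 1.19%, 1.98%, 0.580% and 1.27%. The AP-1 motif TGACTCA or TGAGTCA was in 1.69%, 0.813%, 2.01% and 1.44%. The YY1 motif AAGATGG was in 3.58%, 4.05%, 3.21% and 3.62%, the RFX motif GTTGCC in 9%, 6.66%, 8.36% and 7.66%, and the E-box CACGTG in 4.54%, 5.6%, 3.63% and 4.61%. The NRF1 motif was in 0.654%, 1.23%, 0.213% and 0.715%. The ZNF143 element was in 1.81%, 1.33%, 0.239% and 0.884%. It was in 11 of the 126 members at Zfp genes (8.73%) and in 36 of the others (1.45%). For each motif the base composition of the classes differs, with a median GC content of 62.0% in members, 68.0% at CpG-richer promoters and 55.3% in distal DHSs. The GC box, ETS, CRE, NRF1 and CACGTG motifs also hold a CpG. Their lower shares in members than at CpG-richer promoters are thus set in part by the rule.

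CTCF matches were most frequent among the members poorest in CpG. The CTCF motif was in 2.46% of members (64 DHSs, interval 1.90 to 3.13), 0.590% at CpG-richer promoters, 17.7% of distal DHSs and 8.47% of all shared DHSs. Under a TSS ratio of 0.3 it was in 18 of 222 members (8.11%, interval 4.88 to 12.5), against 1.93% of those from 0.3 to 0.6 (interval 1.42 to 2.57). It was at 0.0571% of CpG-poor TSSs without a call. Those 222 members also lay farther from the start: 28.4% were centred over 500 bp away, against 13.5% of the other members, and 45.5% covered the TSS, against 70.1%. Their median width was 240 bp, against 360 bp. Among the printed sites, the DHS at Dusp13, a phosphatase gene of testis and muscle, had 2.26 and 3.62 and was centred at -491.5 bp. Pcp4, a calmodulin regulator of neurons, had 1.97 and 3.97 at -5.5 bp. The DHSs at Hipk4, a kinase, and Myo7a, a myosin of hair cells, had 1.11 and 2.11 and 0.915 and 1.87.

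The REST motif core was rare. It was in 10 members (0.384%, interval 0.185 to 0.706), 0.0342% of DHSs at CpG-richer promoters, 0.0512% of distal DHSs and 0.0769% of all, and in 0 of 15755 windows at CpG-poor TSSs without a call, which allows up to 0.0234%. Among the 10 were matches near Ogdhl, Chrnb2, Snap25, Alk, Lhx3, Vwc2l, Gm20715, Htr1a and Cntnap2. The median signal values of the 10 were 0.747 and 1.21, under the members' 0.985 and 2.12. The Snap25 site lies in the second DHS of that gene (0.752 and 1.6), centred 772.5 bp downstream of the TSS, and not in the stronger one over the start. The Htr1a site lay in a DHS of 0.635 and 0.914.

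Footprints fell on some motifs far more than on others. In members, 62 of 64 CTCF matches (96.9%, interval 89.2 to 99.6) were overlapped by a footprint of replicate 1 and all 64 by one of replicate 2 (interval 94.4 to 100), while 23.6% and 34.8% of all windows of that length in the same central 150 bp were. The matches without one in replicate 1 were at Scn2a, a sodium channel gene, and Dtx2. The shares were 97.1% and 100% at CpG-richer promoters, and 98.5% and 99.4% in distal DHSs, so nearly every CTCF match had a footprint in each class. The motif of NRF1, a regulator of mitochondrial genes, had a footprint at 16 and 17 of 17 matches. For GC boxes the shares were 32.2% and 54.2%, against 17.5% and 27.0% of windows, and for the CRE 51.6% and 77.4%, against 19.6% and 29.7%. CCAAT was close to its windows in replicate 1, at 19.1% against 16.5%, and above them in replicate 2, at 34.3% against 25.6%. AP-1 matches were overlapped less than windows, at 4.55% (interval 0.555 to 15.5) against 18.5% in replicate 1 and 13.6% (interval 5.17 to 27.4) against 28.4% in replicate 2. CAGATG had 19.9% and 32.3% in members, against 17.5% and 27% of windows. In distal DHSs it had 33.6% and 43%, against 24.5% and 32.9% of windows there. The REST core had a footprint at 5 of 10 matches in each library. Those at Chrnb2, Ogdhl, Lhx3 and Gm20715 had one in both, and those at Snap25, Cntnap2 and Htr1a had none. Sequence preference of DNase I and the place of a match within its DHS were not matched, and their part in these shares was not tested.

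**Figure D5:**
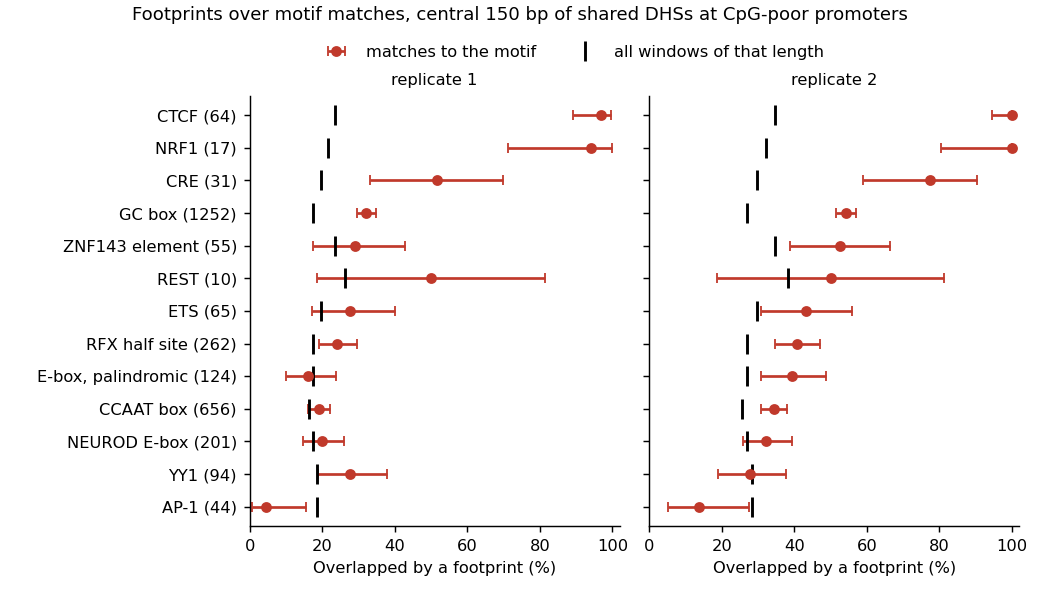
Percent of motif matches in the central 150 bp of the members that a footprint of replicate 1 (left) or replicate 2 (right) overlaps (horizontal axis), with the number of matches beside each motif. Red points are shares with exact 95% binomial intervals, and black ticks are the shares of all windows of the motif's length in the same DHSs. CTCF stands at 96.9% and 100%, far right of its ticks at 23.6% and 34.8%, and AP-1 at 4.55% and 13.6%, left of its own.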

How the data were processed

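DNase-seq of 2 libraries from 1 group was analysed from the deposited peak, cut-rate and footprint files, in mm10 coordinates per the labels. How reads were aligned and peaks and footprints called is not given here by any label or header. Peak lists hold a signal value per call, as the authors deposited it; its scaling is not stated, so libraries stand side by side. The deposited cut-rate file holds q-values, false discovery rates of the cut rate, for runs of bases and lists those under 0.05, and the deposited footprint lists carry 0.01 on every line in the p-value column; what it stands for is not stated, and it was not used. Depth in reads is not stated in these files.

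TSSs came from GENCODE M21 basic transcripts on GRCm38, and CpG ratios from its sequence. Footprints overlapped by 1 bp or more. Intervals are exact (Clopper-Pearson) 95% binomial. With 1 group there is no test. The interval, class and CpG functions were tested on simulated data. The members, 40 gene lists and 13 motifs were chosen with earlier results of these data known; ZNF143 and CACGTG were added last. Named genes were the 15 strongest members, in each list the 2 strongest and the alphabetically first 2 lacking any call, the 5 strongest with TATAAA, the 3 widest, the 3 with most footprints, the 3 nearest the threshold on each side, and 16 fixed genes; a selection is printed. Genes in 1 library alone and the genes of REST and CTCF matches were chosen after their values were seen. The alternatives were 9 other settings of the rule. Python 3.11.15 with pandas 2.3.3, scipy 1.17.1 and pysam 0.24.0 was used. Some named items are not reported here.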

Additional observations from a re-analysis of the deposited data

How the results depend on the processing

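The 9 alternatives were run for the number of members, their share of genes, width, both signal ratios, and the footprint, TATAAA and upstream shares, and for no list, motif or profile. Of 70 values, 38 stayed inside the interval of the main setting, or within 1.5 times for the count, and 32 moved outside it. Lenient peak lists gave 3953 members, 25.5% of CpG-poor genes, a median width of 380 bp, signal ratios of 0.582 and 0.447 and footprints of each library in 84%. The stronger 50% of calls gave 14.1% of genes, ratios of 0.733 and 0.636, footprints in 95.4% and 44.7% centred upstream. A window of 500 bp gave 17.4% of genes, ratios of 0.638 and 0.511 and TATAAA at 0.527% of members, against 0.846%. A window of 2 kb gave 20.3% of genes and a replicate 1 ratio of 0.692. A CpG threshold of 0.5 gave 1307 members, 10.5% of genes, a width of 320 bp and ratios of 0.627 and 0.5. The cause of these shifts was not tested, apart from fewer or more calls and genes entering. With calls of 1 library alone there were 3689 to 4155 members at 20.7% to 24.3% of genes, 235 to 240 bp wide as single calls are, with ratios of 0.648 in replicate 1 and 0.521 in replicate 2, that library's footprints in 76.8% to 88.6% and 40.1% to 44.3% centred upstream. No paired analysis was possible because there is 1 group. With 2 libraries, spread between animals cannot be estimated well.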

Other observations

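Members were spread over the chromosomes. Leaving out olfactory and vomeronasal receptor genes, 19.6% of 652 CpG-poor genes on chromosome X held one (interval 16.6 to 22.9), against 22.5% of 8540 on the autosomes (interval 21.6 to 23.4). Genes with a CpG-richer TSS gave 84% on chromosome X and 90.5% on the autosomes. The shares ran from 14.5% of 262 genes on chromosome 16 to 30.2% of 331 on chromosome 13, and chromosome Y, absent from these female mice, gave 0 of 177 genes.

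At least 1 distal shared DHS lay within 50 kb of 49.9% of members, 51.7% of DHSs at CpG-richer promoters and 62.2% of distal DHSs. Members within 1 kb of protein-coding TSSs on both strands numbered 81 (3.11%). In 14 members (0.538%) each of the tested 31-base words at the centre occurs at 2 or more places in the reference, so reads there could belong to a copy. They include Duxf3 (1.65 and 2.05) and Zfp442 (0.892 and 1.14).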
